A study of Homo sapiens with 9 samples.

Results

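Among the 58735 annotated genes in the count table, 884 were transcribed unprocessed pseudogenes, and 223 of these (25.2%) had a mean of at least 10 counts over the 9 samples of KHM-5M cells. These 223 are described here. The mean count chose them and says nothing of treatment. A transcribed unprocessed pseudogene arises when a gene is duplicated together with its introns and one copy loses its coding capacity while it is still made into RNA. Such copies often lie in segmental duplications, and they remain close in sequence to the gene they came from, called the parent gene below. Reads that match both copies equally well may be dropped, or counted for the wrong copy, so a pseudogene and its parent are best read side by side.

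The cells, KHM-5M, are an established line derived from thyroid cancer with BRAF V600E and TERT promoter mutations, a background that every group shares. They received DMSO, the solvent control, or 0.3 µM or 1 µM of YK-4-279, all for 24 h, with 3 samples in each group. YK-4-279 is a small molecule described as an inhibitor of ETS transcription factors. The comparison of each dose with DMSO asks which RNAs change after drug treatment, and both comparisons use the same DMSO samples.

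The 9 libraries held 16903251 to 18238884 counts assigned to genes. Of the thyroid follicular markers, PAX8 had 2742 to 3660 counts in each sample, whereas FOXE1 had 7 to 34, NKX2-1 0 to 10, DIO1 0 to 9, TG 0 to 4, TSHR 0 to 2, and SLC5A5 0 or 1. Among markers of other cell types, the collagen gene COL1A1 had 5579 to 9593 counts and VWF 36 to 77, while DCN, PECAM1, ALB and PTPRC stayed at 8 counts or fewer. The study's methods speak of biological replicates. The labels do not say that the 3 samples of a group were separate cultures, so the p-values below measure the spread between these samples, which may be technical.

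For 99 of the 223 members, a parent was assigned from the gene symbol: 93 by removing the final P and number and 6 from the known name of the family. These members had 67 distinct parents, and 124 members had none by this rule. In transcripts of GENCODE release 44, a median of 99.06% of the pseudogene transcript aligned to the parent transcript, with a median identity of 94.21%. Of all windows of 100 bases in a pseudogene transcript, a median of 1.33% occurred without any difference in the parent, and 48 of the 99 pairs shared no such window. Only GTF2IP1 (79.36%) and PDZK1P1 (73.38%) shared more than 50% of their windows with the parent, which for GTF2IP1 is the transcription factor gene GTF2I and for PDZK1P1 the scaffold gene PDZK1. The alignment covered only 2.29% of ADCY10P1 and 28.12% of LSP1P4.

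For 5 pairs with a called difference between the copies (below), a stretch of 75 bases is shown to let the reader see what near-identical copies look like. A stretch does not stand for the whole transcript: over the aligned bases the identity was 96.95% for HERC2P2, 94.5% for NSUN5P1, 94.92% for SUZ12P1, 81.56% for UBE2Q2P2 and 94.14% for SMG1P7. In each pair the pseudogene comes first and the parent second, both 5′ to 3′ along their own transcript in GRCh38, and capitals mark the bases that differ between the copies. HERC2 encodes a giant ubiquitin ligase, NSUN5 an RNA methyltransferase of the large ribosomal subunit, SUZ12 a subunit of Polycomb repressive complex 2 (PRC2), UBE2Q2 a ubiquitin-conjugating enzyme and SMG1 a kinase of nonsense-mediated decay. The stretch of HERC2P2 lies at chr15:22534094-22534168 (+ strand, exon 3 of 32) and that of HERC2 at chr15:28270768-28270842 (- strand, exon 10 of 93). The stretch of NSUN5P1 lies at chr7:75410619-75410693 (+ strand, exon 2 of 11) and that of NSUN5 at chr7:73308466-73308540 (- strand, exon 2 of 10). The stretch of SUZ12P1 lies at chr17:30732048-30732122 (+ strand, exon 1 of 9) and that of SUZ12 at chr17:31937445-31937519 (+ strand, exon 1 of 16). The stretch of UBE2Q2P2 lies at chr15:82391844-82391918 (+ strand, exon 1 of 8) and that of UBE2Q2 at chr15:75859878-75859952 (+ strand, exon 3 of 13). The stretch of SMG1P7 lies at chr16:70245542-70245616 (- strand, exon 2 of 20) and that of SMG1 at chr16:18884093-18884167 (- strand, exon 9 of 63). Each parent stretch is coding sequence, and the 2 copies differ at 2 of the 75 bases for SUZ12P1 and at 3 for the other 4 pairs.
HERC2P2: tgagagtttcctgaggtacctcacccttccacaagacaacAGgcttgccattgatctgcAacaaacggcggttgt
HERC2: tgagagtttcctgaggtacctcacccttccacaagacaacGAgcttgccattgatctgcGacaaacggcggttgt
NSUN5P1: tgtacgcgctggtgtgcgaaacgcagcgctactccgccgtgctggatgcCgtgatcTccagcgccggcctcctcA
NSUN5: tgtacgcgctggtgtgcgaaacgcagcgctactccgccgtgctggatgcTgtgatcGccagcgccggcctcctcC
SUZ12P1: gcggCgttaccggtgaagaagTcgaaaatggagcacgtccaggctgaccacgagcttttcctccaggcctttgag
SUZ12: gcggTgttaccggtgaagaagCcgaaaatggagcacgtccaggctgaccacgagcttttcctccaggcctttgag
UBE2Q2P2: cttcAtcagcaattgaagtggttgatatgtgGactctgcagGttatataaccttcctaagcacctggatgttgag
UBE2Q2: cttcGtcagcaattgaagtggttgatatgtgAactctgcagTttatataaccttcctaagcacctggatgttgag
SMG1P7: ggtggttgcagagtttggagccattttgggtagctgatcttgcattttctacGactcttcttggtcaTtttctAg
SMG1: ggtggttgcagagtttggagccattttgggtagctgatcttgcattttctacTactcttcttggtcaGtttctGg

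The members covered a wide range of levels, with mean counts from 10.1 to 1010 and a median of 64. A total of 71 had a mean of at least 100 and 67 a mean under 30. Just inside the limit were AL732372.2 and SHLD2P1, each with a mean of 10.1, and just outside were SEPT7P9 and AC133552.2, each with 9.67. Chromosome 7 held 34 members, chromosome 15 held 26, chromosome 1 held 25 and chromosome 16 held 19. The 3 members on chromosome Y are included in every count, but they are not described individually. Within a group, the coefficient of variation of a member over its 3 samples had a median of 15.3% in DMSO, 15.1% at 0.3 µM and 16.9% at 1 µM.

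HERC2P2 had the highest mean count (1010), followed by MT1L (977), PPP4R1L (731) and SDHAP1 (500). MT1L belongs to the metallothionein family of small metal-binding proteins, PPP4R1L resembles a regulatory subunit of protein phosphatase 4, and SDHAP1 is a copy of SDHA, the flavoprotein subunit of succinate dehydrogenase. Per length the order differed, since MT1L is short: in DMSO its level was 135.2 FPKM ± 5.31 (SD, n = 3), against 14.5 ± 1.24 for AL390728.4, 9.50 ± 1.12 for HERC2P2 and 9.29 ± 0.405 for SDHAP1. HERC2P2 and SDHAP1 did not differ in FPKM beyond their spread in DMSO.

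Summed over all 223 members, the pseudogenes took a smaller share of the libraries at 1 µM. The sum was 1559, 1618 and 1509 counts scaled to library size (CPM) in the 3 DMSO samples, 1511, 1450 and 1455 at 0.3 µM, and 1279, 1189 and 1226 at 1 µM. All 3 samples at 1 µM lay below every other sample, whereas the ranges of DMSO and 0.3 µM overlapped. The mean fell from 1562 ± 54.6 (SD, n = 3) in DMSO to 1231 ± 45.2 at 1 µM, a change of -21.2% (exact two-sided permutation test, p = 0.1, the smallest p that 3 against 3 allows). At 0.3 µM the mean was 1472 ± 34.3, a change of -5.77% (exact permutation p = 0.2). Without HERC2P2, the most abundant member, the change at 1 µM was -20.4%.

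The sum over the parents changed less, but the 67 parents were assigned to only 99 of the 223 members. Those 99 members were not summed alone. The 67 parent genes summed to 5236 CPM ± 74.5 in DMSO and 5113 ± 91.8 at 1 µM, a change of -2.34% (n = 3 per group, exact permutation p = 0.2). Other classes of mostly noncoding RNA gave values on both sides of the pseudogenes at 1 µM. These classes were summed over all their genes, without the minimum mean count of the members. Sense-intronic transcripts changed by -28.4%, transcripts of the annotation class TEC by -28.1% and unprocessed pseudogenes without annotated transcription by -16.4% (exact permutation p = 0.1 for each). Processed pseudogenes changed by -5.13% (exact permutation p = 0.4). The share of mitochondrial counts was 3.14% ± 0.263 in DMSO and 3.17% ± 0.238 at 1 µM. In bulk RNA, fewer cells that express a gene and less of its RNA per cell cannot be told apart.

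**Figure D1:**
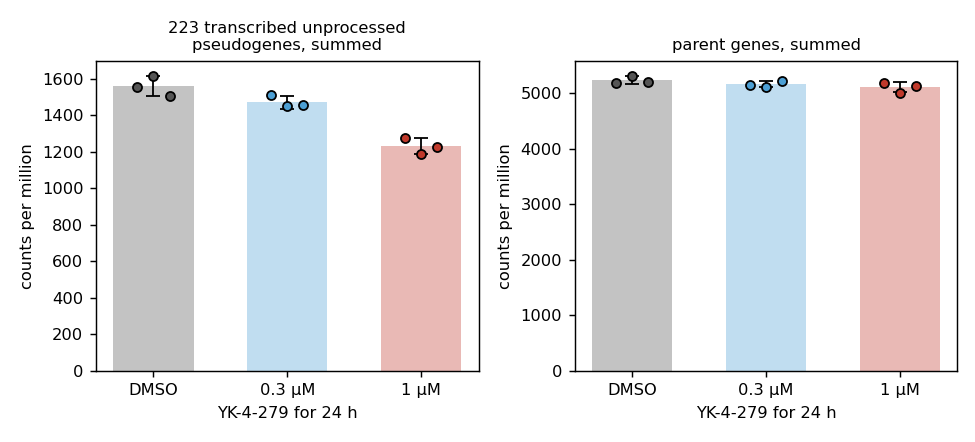
Summed CPM of the 223 pseudogenes (left) and of the 67 parent genes assigned to 99 of them (right) in DMSO, 0.3 µM and 1 µM YK-4-279. Points are the 3 samples of each group, bars the mean and error bars the SD. The pseudogene sums at 1 µM (1189 to 1279) lie below all DMSO sums (1509 to 1618), while the parent sums lie close together.

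At 1 µM, most of the pseudogenes that changed were lower than in DMSO. Of the 223 members, 220 passed the filter on low counts of the edgeR quasi-likelihood test, and 57 (25.9%) were called at an adjusted p under 0.05, where 17.6% of all 15617 genes tested were called. The 3 members that did not pass the filter, PDZK1P1, PPIEL and AL732372.2, all lie on chromosome 1. In all, 54 members fell (24.5% of those tested, against 9.95% of all genes) and 3 rose (against 7.67% of all genes). Beyond 1.5-fold, 34 members fell (4.14% of all genes did) and 1 rose. The median log2 fold change of the members was -0.34, that of all genes tested -0.01 and that of protein-coding genes 0.02, and 174 members (79.1%) had a value below 0, against 51.3% of all genes. The CPM values of the groups did not overlap in 98 members (44.5%, against 35.8% of all genes), among them all 57 called. Without replicate 2 at 1 µM, 32 members fell, and calls over all genes went from 2752 to 1755. Without DMSO replicate 3, 38 members and 1683 of all genes were called.

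Other noncoding classes, held to the same mean of 10 counts, leaned the same way. Among antisense genes 116 of 703 tested fell and 2 rose, with a median log2 fold change of -0.32, and among long intergenic noncoding RNAs 59 of 550 fell and 5 rose, with a median of -0.19. Of 97 unprocessed pseudogenes 17 fell and none rose (median -0.32), while of 424 processed pseudogenes 34 fell and 6 rose (median -0.09). Sense-intronic and TEC genes had lower medians than the members. Of 104 sense-intronic genes 20 fell (median -0.54), of 123 TEC genes 23 fell (median -0.56), and none rose in either class. Of 63 transcribed processed pseudogenes 8 fell and none rose (median -0.12). Protein-coding genes in the same range of mean counts split nearly evenly, with 749 lower and 657 higher of 8777 and a median of 0.00. By parent, 24 of 98 with a parent fell and 1 rose, and 30 of 122 without a parent fell and 2 rose.

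Calls were more frequent where counts were higher, but the lean below 0 was present at every level. Of 71 members with a mean of at least 100, 31 fell and 81.7% had a log2 fold change below 0. Of 85 with a mean of 30 to 100, 18 fell and 82.4% were below 0, and of 64 with a mean under 30, 5 fell and 71.9% were below 0. By chromosome, 9 of 26 tested members fell on chromosome 15 (median log2 fold change -0.59), 8 of 34 on chromosome 7 (median -0.27), 6 of 22 on chromosome 1 (median -0.42) and 3 of 19 on chromosome 16 (median -0.30). Over all genes tested, 9.95% fell. Shares of all genes by chromosome or by level were not computed, so these counts do not set a chromosome or level apart. Copies of the same parent can lie on the same chromosome, so members there may not be separate observations.

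**Figure D2:**
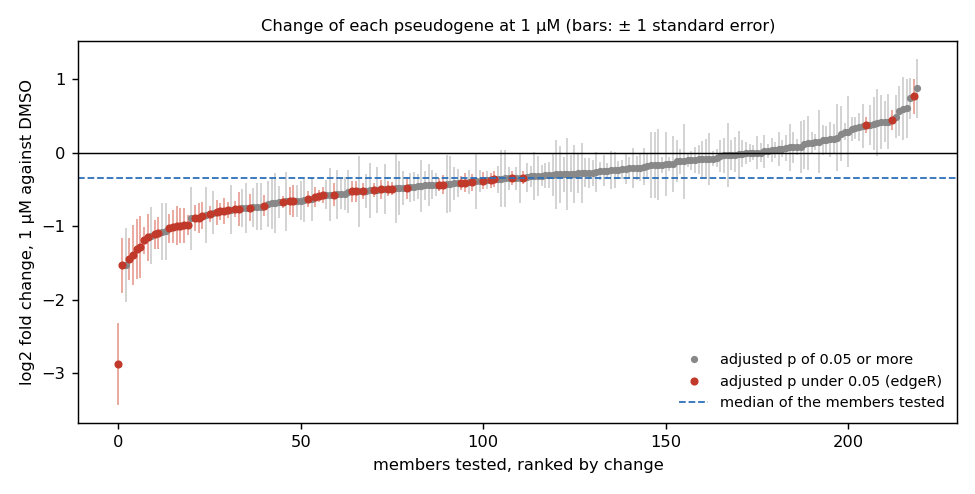
Log2 fold change at 1 µM against DMSO for the 220 members tested, ranked from the largest fall to the largest rise, with bars of 1 standard error. Red points passed an adjusted p of 0.05. The red points crowd the left side, with 54 below 0 and 3 above, and the dashed line marks the median of -0.34.

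The abundant pseudogene HERC2P2 (ENSG00000276550, chr15:22495570-22590815) gave the lowest p of any member. Its counts were 1120, 1353 and 1011 in DMSO, 1261, 1027 and 1097 at 0.3 µM, and 831, 713 and 680 at 1 µM. Every sample at 1 µM was below every other sample. The log2 fold change at 1 µM was -0.67 (SE 0.0863, adjusted p = 0.000195, edgeR), and at 0.3 µM it was -0.07. In FPKM the level went from 9.50 ± 1.12 to 6.06 ± 0.380 (SD, n = 3).

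Other abundant members behaved in different ways. CROCCP2, a copy of the ciliary rootlet gene CROCC, had 481, 472 and 505 counts in DMSO, 498, 435 and 460 at 0.3 µM, and 333, 322 and 329 at 1 µM. The values at 1 µM were tightly grouped and lower than all others, with a log2 fold change of -0.59 (SE 0.0869, adjusted p = 0.000489). SDHAP1 had 557, 574 and 505 counts in DMSO, 536, 600 and 541 at 0.3 µM, and 446, 386 and 355 at 1 µM (log2 fold change -0.48, SE 0.0856, adjusted p = 0.00173). The DMSO and 0.3 µM samples of SDHAP1 overlapped, and those at 1 µM were the lowest. PPP4R1L fell less, from 679, 883 and 784 counts in DMSO to 685, 569 and 629 at 1 µM (log2 fold change -0.34, adjusted p = 0.018). Its lowest DMSO count was under the highest at 1 µM, although the groups did not overlap in CPM.

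Not all abundant members fell. MT1L had 998, 1011 and 909 counts in DMSO and 906, 896 and 1148 at 1 µM, with overlapping groups and a log2 fold change of 0.00 (SE 0.101). SMG1P1, a copy of SMG1, had 342, 366 and 327 counts in DMSO and 285, 313 and 397 at 1 µM, which also overlapped (-0.07, SE 0.127). LRRC37A4P, AL109918.1 and AC106795.1 gave log2 fold changes of -0.08, -0.10 and -0.15, and none of the 3 passed the test. Of the other members among the 15 most abundant, AL390728.4 (-0.51), WASH3P (-0.38), TPTEP1 (-0.35), AC132008.2 (-0.76) and DPY19L2P1 (-0.43) fell.

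The largest fall was that of AC093012.1 (ENSG00000257896, chr12:43736628-43741067). It had 25, 28 and 22 counts in DMSO, 20, 25 and 29 at 0.3 µM, and 0, 7 and 3 at 1 µM. The ranges of DMSO and 0.3 µM overlapped and the 3 samples at 1 µM held 7 counts or fewer, with a log2 fold change of -2.87 (SE 0.560, adjusted p = 0.00324). On the opposite strand it overlaps PUS7L, a pseudouridine synthase gene with a log2 fold change of -0.21.

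GOLGA2P11 and AC126323.1 lie next to each other on the minus strand of chromosome 15, at chr15:62253730-62270680 and chr15:62227896-62253235. GOLGA2P11 is a copy of GOLGA2, which encodes the Golgi matrix protein GM130. Its counts were 46, 63 and 26 in DMSO, 28, 36 and 33 at 0.3 µM, and 21, 9 and 17 at 1 µM (log2 fold change -1.53, SE 0.369, adjusted p = 0.011). AC126323.1 had 84, 120 and 90 counts in DMSO, 110, 75 and 73 at 0.3 µM, and 41, 17 and 51 at 1 µM (log2 fold change -1.44, SE 0.286, adjusted p = 0.00358). In both, replicate 2 was the highest DMSO sample and also the lowest sample at 1 µM.

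STAG3L5P, a copy of the meiotic cohesin gene STAG3, had 179, 245 and 142 counts in DMSO, 174, 181 and 167 at 0.3 µM, and 104, 70 and 77 at 1 µM. The groups at 1 µM and DMSO did not overlap, and the log2 fold change was -1.19 (SE 0.187, adjusted p = 0.000771). PGM5P2, a copy of the phosphoglucomutase-like gene PGM5, had 185, 196 and 162 counts in DMSO, 138, 152 and 112 at 0.3 µM, and 101, 85 and 93 at 1 µM. Its 3 groups did not overlap, with the low dose between the other two, and its log2 fold change at 1 µM was -0.98 (SE 0.134, adjusted p = 0.000291).

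HLA-L and MICE are related to genes of antigen presentation and immune recognition. HLA-L, a class I HLA pseudogene, had 79, 90 and 91 counts in DMSO, 111, 75 and 95 at 0.3 µM, and 55, 38 and 31 at 1 µM (log2 fold change -1.09, adjusted p = 0.00324). MICE, a pseudogene of the MHC class I chain-related family, had 31, 38 and 45 counts in DMSO and 19, 11 and 22 at 1 µM (-1.15, adjusted p = 0.0243). MICE shares its strand and position with HLA-F-AS1 (-0.43), and reads of overlapping genes may have been split between them.

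The remaining members with the largest falls were ABCC6P2 (-1.39), INTS4P2 (-1.31), LINC01529 (-1.28), AC004890.2 (-1.11), ANKRD20A5P (-1.03) and AL390879.1 (-1.01), with adjusted p-values from 0.00181 to 0.048. ABCC6P2 is a copy of an ABC transporter gene, and INTS4P2 of a subunit of the Integrator complex, which processes small nuclear RNAs. ABCC6P2 rested on few reads, 19, 21 and 15 counts in DMSO against 5, 10 and 6 at 1 µM, and it kept its call in 7 of 13 alternatives. INTS4P2 had 18, 28 and 42 in DMSO against 17, 7 and 12, so its closest samples were 1 count apart. INTS4P2 and LINC01529 also each kept the call in 7 of 13 alternatives.

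The 3 members that rose were ZNF252P, CA5BP1 and AC141586.1. ZNF252P, a zinc finger pseudogene, had 174, 180 and 180 counts in DMSO, 202, 193 and 160 at 0.3 µM, and 255, 212 and 236 at 1 µM (log2 fold change 0.38, SE 0.110, adjusted p = 0.0297). CA5BP1, a copy of the mitochondrial carbonic anhydrase gene CA5B, had 115, 121 and 106 counts in DMSO, 118, 161 and 115 at 0.3 µM, and 151, 171 and 149 at 1 µM (0.44, SE 0.135, adjusted p = 0.0353). AC141586.1 had 46, 47 and 25 counts in DMSO, 61, 58 and 57 at 0.3 µM, and 76, 62 and 66 at 1 µM (0.77, SE 0.241, adjusted p = 0.0407). In each, all samples at 1 µM were above all DMSO samples. None of the 3 was called by DESeq2.

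**Figure D3:**
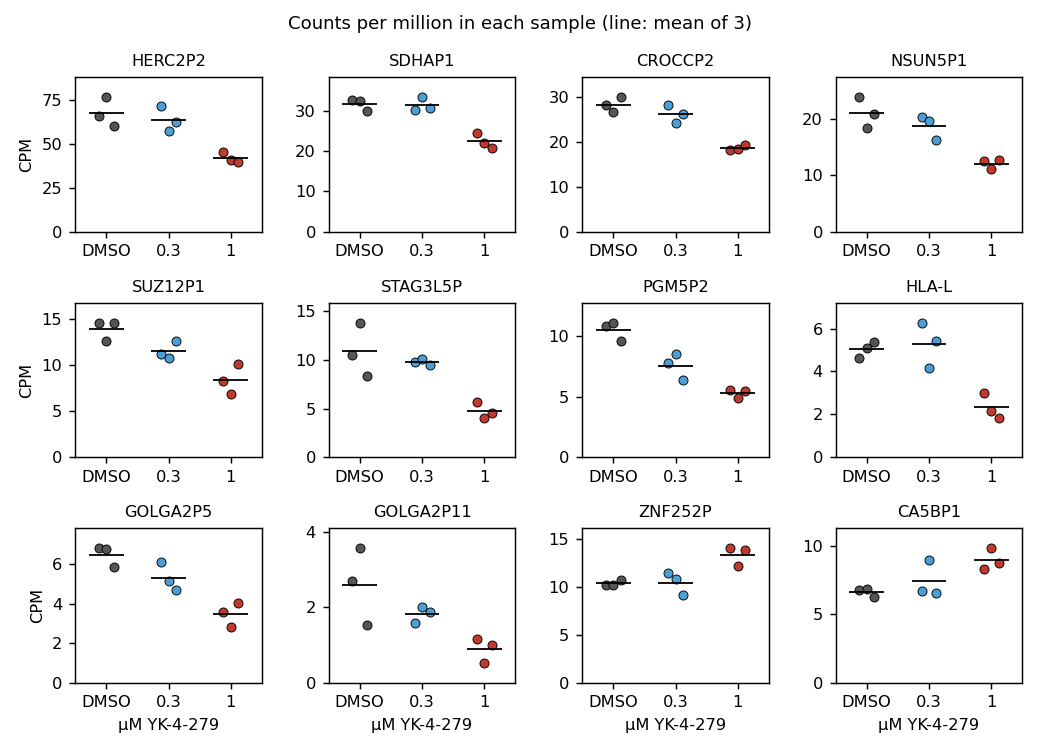
CPM in each of the 9 samples for 12 members, with the mean of each group as a line; each axis starts at 0. For the first 10 members the 3 samples at 1 µM lie below all DMSO samples, and for ZNF252P and CA5BP1 above them.

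Members were also grouped by the start of their symbol into families, most of whose parents have related roles. Copies of other genes with such roles, such as NSUN5P1, INTS4P2, SUZ12P1, SDHAP1, ASNSP1, PGM5P2, CA5BP1 and RNF216P1 (-0.10, not called), were not in these families and are counted with the rest. Of 17 members of the families GOLGA, CROCCP, WHAMMP, WASH, DNM1P, CSPG4P and PKD1P, 7 fell (9.95% of all genes did) and none rose. The median log2 fold change of the 17 was -0.43. Most of these families come from genes of the Golgi, cytoskeleton and membrane traffic, but CSPG4P and PKD1P do not. The 7 that fell included PKD1P6, GOLGA2P5 (-0.89), GOLGA2P11 and all 3 WASH copies, WASH6P (-0.49), WASH2P (-0.41) and WASH3P (-0.38). The parents of the WASH copies encode an activator of actin branching on endosomes. WASH6P kept its call in 13 of 13 alternatives, WASH3P in 8 and WASH2P in 6. Likeness among the copies of a family was not measured, so their falls may not be separate observations. Of 6 members of the ubiquitin gene families HERC2P, UBE2Q2P and SMURF2P, 3 fell (median -0.61), namely HERC2P2, HERC2P9 (-0.43) and UBE2Q2P2 (-0.79). HERC2P9 kept its call in 6 of 13 alternatives. HERC2P3 (-0.56) and UBE2Q2P1 (-0.65) did not pass the test.

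Of 16 members of the families SMG1P, GTF2IP, GTF2H2, RRN3P, BMS1P and POLR2J, from genes of RNA metabolism and transcription, 1 fell, SMG1P7 (-0.99, SE 0.262, adjusted p = 0.018), with a median of -0.19 for the group. SMG1P7 had 101, 54 and 99 counts in DMSO, 89, 80 and 75 at 0.3 µM, and 47, 35 and 48 at 1 µM, and the other 3 SMG1 copies had log2 fold changes of -0.07, -0.09 and -0.30. None of the 5 GTF2I copies passed the test (median -0.15). Of 7 members of the families PMS2P and STAG3L, from DNA repair and chromosome genes, 1 fell, STAG3L5P, while the other 4 STAG3 copies had log2 fold changes from -0.31 to -0.22.

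Of 8 zinc finger pseudogenes, 1 fell, ZNF767P (-0.63), and 1 rose, ZNF252P. Of 5 members of the families GUSBP, GBAP and ABCC6P 1 fell, ABCC6P2 (median -0.38). Of 15 members from segmental duplication families 2 fell, FAM86B3P (-0.66) and ANKRD20A5P, with a median of -0.08. Within these, none of the 4 LRRC37 copies passed the test (median -0.04), and neither did the other 5 FAM86 copies. Of the 144 tested members outside these families and outside HLA-L and MICE, 36 fell and 2 rose, with a median of -0.32. The families are small, and no test compared one group with another.

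Whether a pseudogene moved with its parent was tested directly for the 88 pairs whose parent had a mean of at least 50 counts. The level of the parent in each sample was given to the edgeR fit as an offset, so the coefficient is the change of the pseudogene minus that of its parent. At 1 µM, 21 of the 88 pseudogenes (23.9%) fell relative to their parent and 1 rose. Without replicate 2 at 1 µM, 10 fell, and fewer genes were called without it as well, as given above. The median difference was -0.24 on the log2 scale, and 65 of 88 differences were below 0. The pseudogenes of these pairs had a median log2 fold change of -0.36 and the parents one of 0.03. On their own, 22 of the 88 pseudogenes were called. For 6 of the 22 the parent was called in the same direction, and for none in the opposite direction. Several pseudogenes share a parent, since the 88 pairs rest on 57 parents, so the pairs are not independent.

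Among the parents themselves, 60 of 67 could be tested, and 7 fell and 4 rose, 18.3% against the 17.6% of all genes. The 21 pseudogenes that fell relative to the parent had 17 distinct parents. Of these 17, 14 were not called at 1 µM, BMS1 (0.38) and PLEKHM1 (0.29) rose, and GOLGA2 (-0.23) fell. On their own, 14 of the 21 pseudogenes were also called lower and 7 were not.

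HERC2P2 gave the lowest p in the test of the difference from the parent. HERC2 had 3160, 3230 and 2922 counts in DMSO, 3371, 3248 and 3045 at 0.3 µM, and 3355, 3005 and 3211 at 1 µM, so its groups overlapped (log2 fold change 0.02, SE 0.0576). HERC2P2 amounted to 35.4, 41.9 and 34.6% of the HERC2 count in DMSO, 37.4, 31.6 and 36.0% at 0.3 µM, and 24.8, 23.7 and 21.2% at 1 µM. The ratio was lower in all 3 samples at 1 µM, with a difference of -0.68 on the log2 scale (SE 0.0862, adjusted p = 0.000158). The other HERC2 copies pointed the same way, with differences of -0.45 for HERC2P9 (adjusted p = 0.0314) and -0.59 for HERC2P3 (adjusted p = 0.0667). The HERC2P9 pair kept its call in 5 of 10 alternatives. Likeness among these copies was not measured, so they may not be separate observations.

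NSUN5P1 gave the next lowest p. It had 408, 326 and 353 counts in DMSO, 361, 352 and 286 at 0.3 µM, and 229, 193 and 216 at 1 µM, while NSUN5 stayed between 521 and 620 counts in all 9 samples. As a percentage of NSUN5, NSUN5P1 went from 71.3, 60.9 and 65.6% in DMSO to 38.0, 32.6 and 41.5% at 1 µM. The groups were well apart, and the difference was -0.82 on the log2 scale (SE 0.111, adjusted p = 0.000255). On the opposite strand NSUN5P1 overlaps POM121C, a nuclear pore gene with a log2 fold change of 0.12.

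SUZ12P1 and UBE2Q2P2 followed. SUZ12P1 had 249, 224 and 247 counts in DMSO, 198, 194 and 222 at 0.3 µM, and 151, 120 and 173 at 1 µM, or 18.5, 15.2 and 18.3% of SUZ12 in DMSO against 9.56, 8.58 and 12.3% at 1 µM (difference -0.77, SE 0.142, adjusted p = 0.0023). SUZ12 itself had a log2 fold change of 0.05. On its own strand SUZ12P1 overlaps AC127024.8, which had a log2 fold change of -1.0, and reads may have been split between them. UBE2Q2P2 had 108, 134 and 103 counts in DMSO, 85, 97 and 105 at 0.3 µM, and 83, 67 and 53 at 1 µM, and it fell by 0.96 relative to UBE2Q2 (SE 0.177, adjusted p = 0.00228), whose own log2 fold change was 0.18.

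In some pairs with a called difference the parent rose. PLEKHM1, an adaptor of late endosomes and lysosomes, rose by 0.29 on the log2 scale (adjusted p = 0.0224), while PLEKHM1P1 had a log2 fold change of -0.24 (adjusted p = 0.123), giving a difference of -0.53 (adjusted p = 0.00341). BMS1, a GTPase of ribosome assembly, rose by 0.38 (adjusted p = 0.000922), and its copies BMS1P1 and BMS1P4 gave differences of -0.88 and -1.01, whereas that of BMS1P22 was 0.20 and did not pass the test. BMS1P1 had 76, 108 and 59 counts in DMSO and 72, 53 and 47 at 1 µM, which overlapped. Its difference from BMS1 thus rested on both copies. The BMS1P4 pair kept its call in 5 of 10 alternatives. On its own strand BMS1P4 overlaps another entry of the same name (-1.32), and PLEKHM1P1 overlaps ARHGAP27P1-BPTFP1-KPNA2P3 (-0.72). Reads may have been split between such genes.

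Further pairs with a called difference were RRN3P1 and RRN3, an initiation factor of RNA polymerase I (-0.69), SEPT7P2 and the septin gene SEPT7 (-0.68), PMS2P3 and the mismatch repair gene PMS2 (-0.64), SMG1P7 and SMG1 (-1.08), and UBE2Q2P1 and UBE2Q2 (-0.82). RRN3P1, PMS2P3 and UBE2Q2P1 were not called on their own. The sister copies RRN3P3 and PMS2P4 gave differences of 0.03 and 0.21, which did not pass the test. The largest difference was that of INTS4P2 from INTS4 (-1.44, SE 0.404, adjusted p = 0.0239), which kept its call in 7 of 10 alternatives. The smallest called was that of SDHAP1 from SDHA (-0.33), which also kept its call in 7.

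ASNSP1 was the 1 pseudogene that rose relative to its parent, and both copies fell. ASNS, which encodes asparagine synthetase, had 161, 168 and 153 counts in DMSO, 98, 117 and 300 at 0.3 µM, and 68, 69 and 59 at 1 µM. The log2 fold change of ASNS at 1 µM was -1.32 (SE 0.145, adjusted p = 5.35e-05). ASNSP1 had 118, 153 and 123 counts in DMSO, 122, 116 and 230 at 0.3 µM, and 96, 80 and 93 at 1 µM (log2 fold change -0.57, adjusted p = 0.0196). Replicate 3 at 0.3 µM stood apart in both copies, and the difference at 1 µM was 0.75 (SE 0.163, adjusted p = 0.00636).

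**Figure D4:**
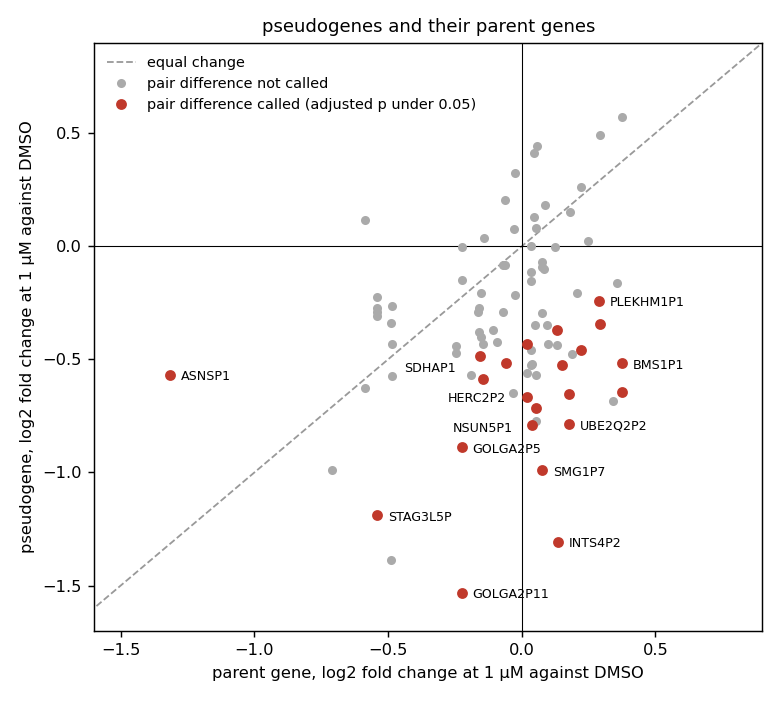
Log2 fold change at 1 µM against DMSO of 88 pseudogenes (vertical axis) and of their parent genes (horizontal axis). On the dashed line both changed equally; red points passed the test of the difference. Of the 22 red points, 21 lie below the line and only ASNSP1 above it.

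**Figure D5:**
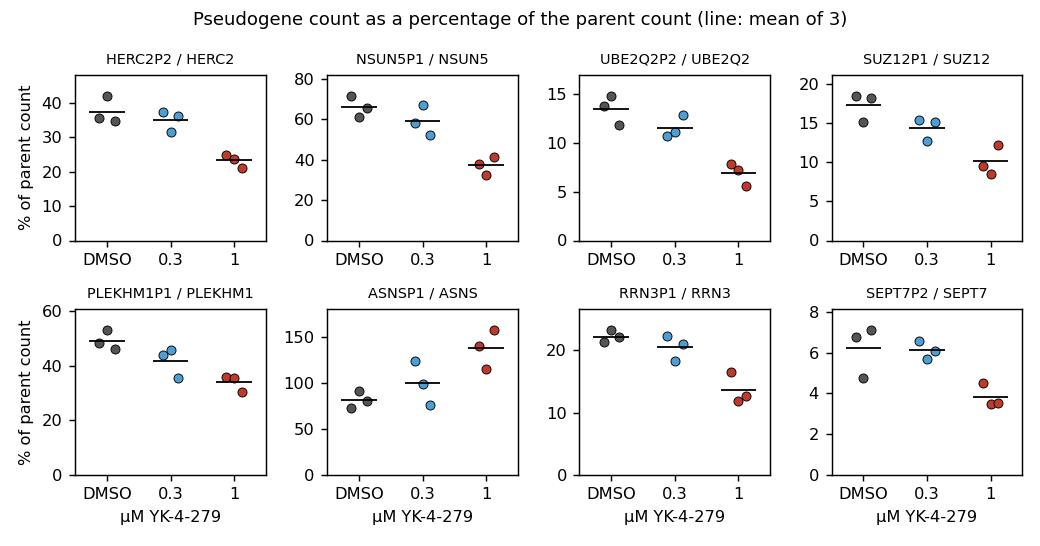
Pseudogene count as a percentage of the parent count in each sample for the 8 pairs with the lowest p in the pair test at 1 µM; lines are group means. In 7 pairs the 3 samples at 1 µM lie below all DMSO samples, and for ASNSP1 they lie above them.

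Called pairs and other pairs had similar median likeness to the parent. Of the 22 called pairs, 11 shared no identical window of 100 bases with the parent and the median identity was 94.32%. Of the 66 pairs not called, 30 shared none and the median identity was 94.25%. HERC2P2 shared 17.8% of its windows, SUZ12P1 18.1%, NSUN5P1 5.71%, and SDHAP1 and UBE2Q2P2 none. When the counts of both copies were added up and tested as 1 feature, 19 of 88 sums fell and 6 rose at 1 µM. Of all genes, 9.95% fell and 7.67% rose. The sums rest on 57 parents, so the same parent can enter several of them, and they are not independent. The sum of HERC2P2 and HERC2 was not called (-0.13, adjusted p = 0.139), nor was that of NSUN5P1 and NSUN5 (-0.23, adjusted p = 0.0512).

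Per length, most of these pseudogenes were minor copies. In DMSO, a pseudogene of the 88 pairs had a median of 14.0% of the FPKM of its parent, with a range of 0.351 to 699%. A total of 42 were under 10% and 15 were above their parent. HERC2P2 stood at 108% of HERC2, CROCCP2 at 119.9% of CROCC, and NSUN5P1 at 46.8% of NSUN5. The highest was STAG3L5P at 699% of STAG3, a gene with a mean of only 0.547 FPKM.

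At 0.3 µM, no member passed the test. Of 222 members tested none was called by edgeR, and none of all 15762 genes tested was either (0.0%). DESeq2 also called none of the members. In all, 12 members had an unadjusted p under 0.05, 11 lower (2.13% of all genes were) and 1 higher, where 3.77% of all genes had such a p in either direction. The median log2 fold change was -0.07 and 141 members (63.5%) were below 0, against 49.7% of all genes. Groups did not overlap in 25 members (11.3%, against 8.43% of all genes), and in 18 of them 0.3 µM was the lower group (5.27% of all genes).

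The lowest p at 0.3 µM was that of PGM5P2, whose counts are given above. Its log2 fold change was -0.46 (SE 0.143, unadjusted p = 0.00485, adjusted p = 0.995). Of the 54 members that fell at 1 µM, 44 had a value below 0 at 0.3 µM. Their medians were -0.17 at 0.3 µM and -0.73 at 1 µM, and both rest on the same DMSO samples. No pair was called at 0.3 µM among 87 tested by edgeR, with 2 at an unadjusted p under 0.05, PMS2P3 and PKD1P6, and a median difference of -0.02.

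The 2 doses were also compared with each other. Between 1 µM and 0.3 µM, 32 of 217 members tested were called, 14.7% against 12.6% of all genes. Of these, 30 were lower at 1 µM (13.8%, against 6.75% of all genes) and 2 were higher (5.85% of all genes), and the median log2 fold change was -0.25. Beyond 1.5-fold 15 were lower, against 2.36% of all genes. Without replicate 2 at 1 µM 13 were lower, and without replicate 3 at 1 µM 18. Calls over all genes went from 1963 to 1118 and 948 in these fits. Of the 32, 29 were also called between 1 µM and DMSO. The largest falls between the doses were those of AC093012.1 (-2.82), AC126323.1 (-1.22), HLA-L (-1.16), HSD17B7P2 (-1.06) and STAG3L5P (-1.04).

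HSD17B7P2, a copy of a cholesterol synthesis gene, had 102, 104 and 88 counts at 0.3 µM and 57, 52 and 30 at 1 µM, against 109, 79 and 83 in DMSO. Its parent HSD17B7 fell as well at 1 µM against DMSO (-0.71, adjusted p = 0.000995). WHAMMP3 was called between the doses alone (-0.62, adjusted p = 0.0211), as were the 2 members that were higher, STAG3L1 and LINC00888.

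STAG3L1 gave the most irregular counts. It had 212, 32 and 165 in DMSO, 70, 69 and 64 at 0.3 µM, and 110, 122 and 114 at 1 µM. The treated groups were tight and apart (log2 fold change between doses 0.79, SE 0.165, adjusted p = 0.0049), while the DMSO samples enclosed both of them, with replicate 2 lowest of all 9 samples. LINC00888 had 95, 87 and 83 counts at 0.3 µM and 134, 121 and 117 at 1 µM, against 90, 111 and 89 in DMSO (0.51, adjusted p = 0.0359). Among pairs, 12 of 86 pseudogenes fell relative to the parent between the doses and 1 rose, STAG3L1 relative to STAG3.

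Many members overlap other genes. The study's methods name a stranded mRNA library kit (TruSeq) and also a NEBNext small RNA kit, and use of strand in the counting is not stated. Of the 223 members, 29 overlap a gene of at least 10 mean counts on the same strand and 67 one on the opposite strand. Among the 57 members called at 1 µM, 11 overlap on the same strand and 19 on the opposite strand. For 3 of the first kind the partner did not share the change: AC004890.2 lies with ZNF783 (0.09), TPTEP1 with AP000547.3 (0.09) and CA5BP1 with CA5B (0.06). Others had a partner with a value below 0: SUZ12P1 lies with AC127024.8 as given above, HSD17B7P2 with AL117339.5 (-1.31), GOLGA2P5 with AC010203.1 (-0.89) and AC127502.1 with AC127502.2 (-0.82). Without the members that overlap on the same strand, 44 members fell at 1 µM and 2 rose. The part of overlap in these calls was not tested otherwise.

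Promoter windows of 300 bases from RefSeq (GRCh38.p14) matched 6 of the 223 members and 55 of the 67 parents. The core letters of an ETS motif, CCGGAAGT on either strand, occurred in 4.44% of all 27305 windows. Among the 6 members they occurred in that of EMC3-AS1, which fell at 1 µM (-0.48, SE 0.149, adjusted p = 0.0407) from 161, 148 and 124 counts in DMSO to 99, 113 and 103. EMC3-AS1 kept its call in 7 of 13 alternatives. Among parents the letters occurred in 5 of 55 (9.09%), those of NSUN5, PDCD6IP, PLEKHM1, RPL32 and RRN3, of which PLEKHM1 was called. Such a match is a description of the letters in the window.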

How the data were processed

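RNA from 9 samples of KHM-5M cells was selected by poly-T and sequenced. According to the study and the submitters' processing notes, reads were aligned to GRCh38 with HISAT2 (2.0.5). The study names HTseq for counting, whereas the notes name featureCounts (1.5.0-p3). The deposited table holds raw counts per gene and FPKM values, which the authors scaled to gene length and library size. Its columns of the authors' own DESeq2 comparisons (1.20.0 in the notes) were not used. The study's methods give fewer samples per condition than the 3 labelled here.

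Counts were tested in R 4.3.3 with edgeR 4.0.16 (filterByExpr with a minimum count of 10, TMM, quasi-likelihood test) over all genes for each pair of groups, and p-values were adjusted by Benjamini-Hochberg over all genes tested. A call is an adjusted p under 0.05. For pairs, the log of the parent level (count plus 0.5) was an offset. DESeq2 1.42.0, other scalings, filters, samples in the fit, a replicate block and leaving out each sample were alternatives. The scripts were tested on simulated data. Transcripts were aligned with BLAST+ 2.17.0.

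The members and lists were chosen with earlier results of these data known. Named were the 15 members with the highest mean, up to 12 with the largest rise or fall in each comparison, the 12 pairs with the lowest p, those nearest the limit, the lowest p at 0.3 µM, families and parents. Other members named (among them WASH2P, WASH6P, HERC2P9, UBE2Q2P1, FAM86B3P, ZNF767P and EMC3-AS1) were chosen after their values were seen. The 3 members on chromosome Y are left out of individual description. A difference of 3 counts in a library equals 0.164 to 0.177 CPM. This is a conversion of counts to CPM and does not estimate the counting error of a member.

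Deviations from the group mean correlated at -0.022 to 0.082 over 16124 genes between samples that share a replicate number. Between samples with different numbers the range was -0.069 to 0.038, and the highest values were of samples that share a number. All were weak, so the numbers were not taken as pairs. Between replicates of a group, the chi-square of the counts was 3.20 to 10.7 per degree of freedom, above sampling noise, and every library was counted once.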

Additional observations from a re-analysis of the deposited data

How the results depend on the processing

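At 1 µM against DMSO, 54 members fell. The number was 34 beyond 1.5-fold, 88 at an unadjusted p, 24 with members without a parent left out, and 32 to 54 with a sample left out, the lowest without replicate 2 at 1 µM. The 3 that rose became 0 with DESeq2, 0 with the replicate block, 1 beyond 1.5-fold, 7 at an unadjusted p, 1 with members without a parent left out, and 0 to 3 with a sample left out (0 without DMSO replicate 3 or without replicate 3 at 1 µM). At 0.3 µM, the 0 lower members became 1 with every gene of at least 1 count, 11 at an unadjusted p, and 0 to 1 with a sample left out (1 without DMSO replicate 2), and the 0 higher became 1 at an unadjusted p. Between the doses, 30 lower members became 15 beyond 1.5-fold, 59 at an unadjusted p and 13 to 29 with a sample left out (13 without replicate 2 and 18 without replicate 3 at 1 µM). The 2 higher became 1 with DESeq2, 1 with all 9 samples in the fit, 1 beyond 1.5-fold, 7 at an unadjusted p and 1 to 2 with a sample left out. Of the pairs, 21 lower became 10 to 19 with a sample left out (10 without replicate 2 at 1 µM), and the 1 higher stayed in each. The cause was not tested.

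No value reversed. DESeq2 called 38 of the 57 members at 1 µM and no others. Removing the trend with GC content gave 64 calls and with gene length 56, both chosen after seeing the data. In every alternative, 30 of 57 members, 11 of 32 between the doses and 7 of 22 pairs kept their call, and all kept their direction. With the replicate number as a block, 48 members fell at 1 µM and 47 of the 57 calls were shared, and 21 pairs fell. FPKM ratios were not tested as an alternative, since an exact permutation test of 3 against 3 cannot go below p = 0.1.

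Of 64 tested members with a mean under 30 counts, 5 were called lower at 1 µM, against 9.95% of all genes. The part of depth in this was not tested. With members that overlap another gene on the same strand left out, chosen after seeing the data, 44 fell and 2 rose.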
